A study of Arabidopsis thaliana with 8 samples.

Results

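Chromatin accessibility in green seedlings of Arabidopsis thaliana, accession Col-0, was set against that in early germination, using the seedling libraries at 57 h of light (L57.1 and L57.2) and the germinating seed libraries at 6 h of light (L6.1 and L6.2). These are 4 of the 8 ATAC-seq libraries of the study, chosen by their labels, and all 30223 accessible chromatin regions (ACRs) of the deposited tables entered the comparison. ATAC-seq counts where a transposase could cut the DNA, so that read number at a region reflects its openness. Material labelled seedlings gave the L57 libraries, at the stage the study describes by open green cotyledons, and germinating seeds gave the L6 libraries. Both groups were stratified (kept wet, dark and cold) and then shaken in liquid medium under continuous light, and the labels name no mutant and no other treatment. An intermediate point, around radicle emergence, came from 2 libraries at 26 h of light (L26).

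According to the labels, embryos of germinating seeds were squeezed out of the seed coat before nuclei were taken. How seedlings were handled is not stated there. A change of chromatin and a change of tissue therefore cannot be told apart in this comparison, and a smaller number of cells of a type cannot be told apart from lower accessibility in each cell. Whether the 2 libraries of a stage were grown separately is not stated in the labels, and the p-values therefore rest on a spread between libraries that may be technical. That spread was mostly pooled over ACRs, with a median of 191 degrees of freedom from the pool beside 4 from the ACR itself. A p-value or standard error therefore says little about the scatter of a single ACR's own libraries. Summed over ACRs, reads numbered 1534759 and 1853894 in the L57 libraries, against 3142490 and 3302541 in the L6 libraries, and the median ACR held 39 and 46 reads at L57, against 66 and 70 at L6.

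A mature Arabidopsis seed is an embryo that has filled its cells with storage protein and oil, acquired desiccation tolerance through late embryogenesis abundant (LEA) proteins and entered dormancy under abscisic acid (ABA). During germination, gibberellin counteracts ABA, the cell wall of the embryo axis loosens and stored fat is broken down to feed growth. Light then drives the seedling to expand its cotyledons and to build photosynthetic membranes.

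The sequences below are 300 bases around the summits of ACRs on which the results turn, in the orientation of the gene, from RefSeq TAIR10.1. They comprise the ACR with the largest fall, upstream of ABI3 (chr3:8996554-8996853), and promoter ACRs of leading genes of the LEA (LEA7, chr1:19619445-19619744, and AT4G21020, chr4:11227917-11228216), photosynthesis (LHCA2, chr3:22745337-22745636, and GAPA, chr3:9794719-9795018), auxin (SAUR15, chr4:18125763-18126062), growth bHLH (BEE2, chr4:17243325-17243624) and ribosomal protein lists (AT3G56340, chr3:20893358-20893657, on the minus strand). All others lie on the plus strand. Capitals mark short DNA words on either strand: DRE (ACCGAC or GCCGAC, bound by CBF/DREB factors) at ABI3, G-box (CACGTG) and ABRE (ACGTGTC or ACGTGGC, ABA response element, which can overlap the G-box) in the LEA genes and LHCA2, I-box (GATAAG) in LHCA2 and GAPA, AuxRE (TGTCTC or TGTCGG) in SAUR15, PBE box (CACATG, bound by PIF factors) in SAUR15 and BEE2, and Site II (TGGGCC or TGGGCT, bound by TCP factors) in the ribosomal gene.
ABI3 upstream ACR: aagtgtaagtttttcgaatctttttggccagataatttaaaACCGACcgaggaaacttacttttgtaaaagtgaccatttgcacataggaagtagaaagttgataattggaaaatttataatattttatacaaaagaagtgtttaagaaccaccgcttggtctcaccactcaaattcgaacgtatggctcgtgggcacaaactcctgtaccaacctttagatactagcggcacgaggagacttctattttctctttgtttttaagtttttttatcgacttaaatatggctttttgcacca
LEA7 ACR: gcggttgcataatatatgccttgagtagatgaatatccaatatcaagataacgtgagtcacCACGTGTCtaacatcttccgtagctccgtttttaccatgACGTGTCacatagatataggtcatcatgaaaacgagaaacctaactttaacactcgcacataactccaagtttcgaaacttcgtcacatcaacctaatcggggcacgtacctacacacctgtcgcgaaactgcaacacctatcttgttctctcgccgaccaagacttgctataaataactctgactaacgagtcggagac
AT4G21020 ACR: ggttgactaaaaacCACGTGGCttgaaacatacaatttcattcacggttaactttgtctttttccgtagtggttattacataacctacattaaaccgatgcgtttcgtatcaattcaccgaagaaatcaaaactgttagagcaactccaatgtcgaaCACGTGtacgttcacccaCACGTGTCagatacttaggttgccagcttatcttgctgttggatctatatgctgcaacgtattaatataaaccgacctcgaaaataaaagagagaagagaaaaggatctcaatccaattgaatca
LHCA2 ACR: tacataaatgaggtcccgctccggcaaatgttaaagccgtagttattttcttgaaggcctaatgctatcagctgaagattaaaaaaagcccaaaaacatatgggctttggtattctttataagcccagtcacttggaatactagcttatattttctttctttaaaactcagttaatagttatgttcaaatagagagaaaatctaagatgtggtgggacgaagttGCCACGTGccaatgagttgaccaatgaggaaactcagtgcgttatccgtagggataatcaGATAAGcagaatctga
GAPA ACR: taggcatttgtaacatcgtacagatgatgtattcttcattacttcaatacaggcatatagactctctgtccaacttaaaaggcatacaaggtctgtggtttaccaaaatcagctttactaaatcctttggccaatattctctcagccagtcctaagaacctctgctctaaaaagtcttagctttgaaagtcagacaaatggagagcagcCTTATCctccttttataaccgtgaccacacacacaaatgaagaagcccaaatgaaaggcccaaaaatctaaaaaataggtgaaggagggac
SAUR15 ACR: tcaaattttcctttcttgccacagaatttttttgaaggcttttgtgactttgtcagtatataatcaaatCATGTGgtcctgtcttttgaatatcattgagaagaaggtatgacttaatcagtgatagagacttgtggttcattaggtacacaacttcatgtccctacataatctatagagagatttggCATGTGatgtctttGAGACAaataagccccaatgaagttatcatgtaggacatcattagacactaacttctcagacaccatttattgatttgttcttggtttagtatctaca
BEE2 ACR: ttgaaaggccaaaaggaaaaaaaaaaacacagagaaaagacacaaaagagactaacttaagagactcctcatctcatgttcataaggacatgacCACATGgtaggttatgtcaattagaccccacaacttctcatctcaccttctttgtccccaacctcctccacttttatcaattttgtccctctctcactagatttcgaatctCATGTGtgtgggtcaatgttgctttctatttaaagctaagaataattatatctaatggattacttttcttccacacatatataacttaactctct
AT3G56340 ACR: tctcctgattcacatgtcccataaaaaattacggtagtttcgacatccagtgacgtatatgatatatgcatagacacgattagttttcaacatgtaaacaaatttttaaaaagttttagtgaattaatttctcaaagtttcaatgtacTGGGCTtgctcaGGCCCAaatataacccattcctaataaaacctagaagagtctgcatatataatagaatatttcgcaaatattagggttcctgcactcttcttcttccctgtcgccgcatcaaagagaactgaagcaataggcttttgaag

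From 6 h to 57 h of light, accessibility changed in both directions at nearly equal numbers of ACRs. A quasi-likelihood F test called 9618 of 30223 ACRs (31.8%) at an adjusted p under 0.05, of which 4849 (16.0% of all) were higher at L57 than at L6 and 4769 (15.8% of all) were lower. Changes of at least 2-fold were found at 1669 higher and 1971 lower ACRs, and of at least 4-fold at 94 and 146. The DESeq2 Wald test, an alternative, called 3024 higher and 4288 lower ACRs. The L57 and L6 libraries did not overlap at 4823 of the ACRs called higher and at 4757 of those called lower, against 64.7% of all ACRs. The standard error (SE) of a log2 fold change had a median of 0.27 over all ACRs. The numbers of calls rested on both seedling libraries: without L57 replicate 1 the counts were 3075 higher and 2868 lower, and without L57 replicate 2 they were 3145 and 2952.

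The offsets used for scaling set the median change to about 0 at every level of accessibility, so that a change common to all ACRs would not be seen. With total counts in their place, the median log2 fold change of all ACRs was 0.19 instead of 0.01, and 63.2% of the calls were higher at L57, against 50.4% with the offsets. In that scaling the 3023 weakest ACRs had a median of 0.33 and the 3023 strongest of -0.32. Directions of strong ACRs are therefore given below with their sign under other scalings where it differed.

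**Figure D1:**
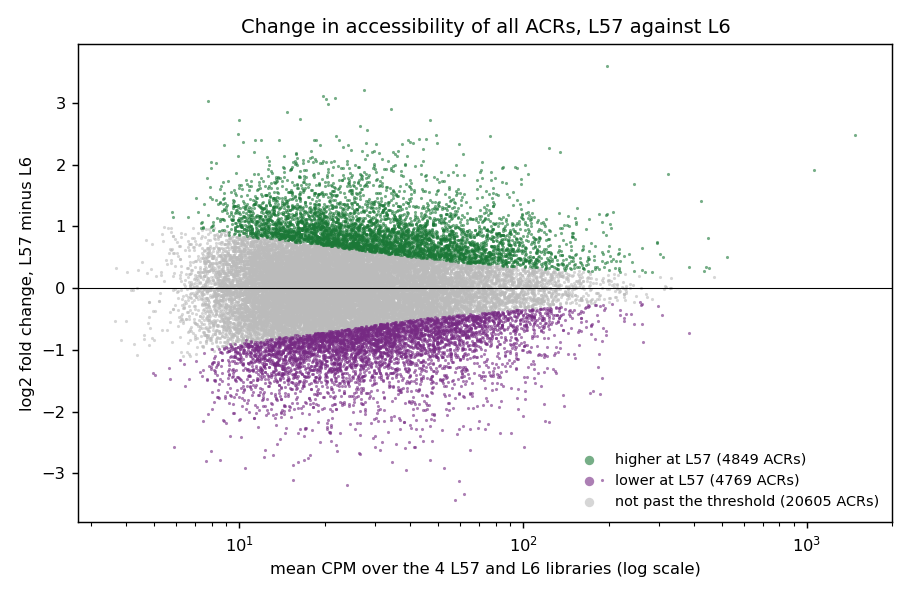
Log2 fold change of L57 over L6 for all 30223 ACRs against their mean CPM over the 4 libraries (log scale), where each point is 1 ACR. Higher ACRs (4849, green) and lower ACRs (4769, purple) spread on both sides of 0 over the whole range of levels.

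Where an ACR lay in the genome went with its direction. A promoter was taken as the stretch that begins 400 bp before and ends 100 bp after a transcription start of the annotation. Of 10094 ACRs with their summit in one, 2297 were lower and 1086 higher at L57. Coding sequence showed the opposite balance, with 1646 higher and 317 lower among 7931 ACRs. With GC-corrected offsets these were 1120 higher and 423 lower and the median was 0.14, and without L57 replicate 1 or 2 there were 869 higher and 179 lower or 974 higher and 157 lower, and 1056 higher and 221 lower without L6 replicate 1. Introns leaned the same way, with 325 higher and 122 lower among 1444. At 3' UTRs 288 of 1002 ACRs were higher and 121 lower. The median log2 fold change was -0.21 in promoters, 0.25 in coding sequence, 0.25 in introns and 0.23 at 3' UTRs, beside 0.01 over all ACRs. Intergenic ACRs had 1595 lower and 1081 higher of 6448 and a median of -0.12, which became 0.04 with total counts and 0.02 with offsets corrected for GC content. Lower ACRs were narrower and poorer in GC (median width 491 bp, 35.2% GC) than higher ACRs (704 bp, 39.4% GC). Many of the largest changes were intergenic, namely 89 of the 146 ACRs that fell at least 4-fold (61%) and 47 of the 94 that rose as much (50%). Of all ACRs 21.3% were intergenic. These position classes are a description with no test, because neighbouring ACRs are not independent.

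Each protein-coding gene with a promoter ACR was represented by the one with the highest mean CPM, which left 10321 genes. For 2360 of them this ACR also lay in the promoter of another gene, so that 1 ACR can count more than once in a list. At L57 1009 of the 10321 genes (9.78%) were higher and 2308 (22.4%) lower, with a median log2 fold change of -0.21. These shares are the background for every gene list below. Without L57 replicate 1 the lower genes numbered 1230, and without L57 replicate 2 they numbered 1297.

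Among genes to which the annotation gives a symbol, promoters of SAUR genes, auxin-induced genes of cell expansion, were among the largest rises. The genes AT5G62280 and AT4G38690, which have none, rose more (3.07 ± 0.32 and 2.98 ± 0.32). RTFL16 (AT3G25717), which encodes a small peptide of the ROTUNDIFOLIA family, had the largest rise of the genes with a symbol, with 19.4 and 32.4 CPM in the L57 libraries, against 3.01 and 4.13 CPM in the L6 libraries (log2 fold change 2.86 ± 0.35, adjusted p = 5.9e-12). The ACR between SAUR15 (AT4G38850) and the neighbouring SAUR14 gene (AT4G38840), which share it, had 85.5 and 81.8 CPM in the L57 libraries, against 13.8 and 16.1 CPM in the L6 libraries (2.47 ± 0.22, adjusted p = 8.9e-21). SAUR68 (AT1G29510) followed with 32.97 and 42.8 CPM in the L57 libraries, against 5.51 and 8.81 CPM in the L6 libraries (2.395 ± 0.30, adjusted p = 2.0e-11). In all 3 the libraries of the stages did not overlap, which the naming rule required. BEE2 (AT4G36540), a bHLH factor of brassinosteroid-driven growth, had 42.7 and 53.4 CPM in the L57 libraries, against 10.1 and 10.8 CPM in the L6 libraries (2.21 ± 0.27, adjusted p = 2.9e-12). PSAN (AT5G64040), a subunit of photosystem I, had 24.4 and 27.4 CPM in the L57 libraries, against 6.68 and 4.79 CPM in the L6 libraries (2.18 ± 0.33, adjusted p = 2.3e-08). For PYK10 (AT3G09260), the main beta-glucosidase of endoplasmic reticulum bodies, the values were 113 and 88.5 CPM in the L57 libraries, against 19.8 and 24.5 CPM in the L6 libraries (2.17 ± 0.18, adjusted p = 1.6e-21). The other genes of the 10 largest rises were CYP71B7, SCPL13, FBA5, an aldolase, and tny, a factor of the DREB family, with log2 fold changes of 2.17, 2.13, 2.06 and 2.05.

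Among genes with a symbol in the annotation, several of the largest falls were at regulators of the embryo. Genes that the annotation lists by identifier alone fell more, with -3.10 ± 0.13 at AT1G27461, -2.94 ± 0.27 at AT4G11910, -2.71 ± 0.40 at AT5G15120 and -2.61 ± 0.21 at AT1G19960. The promoter ACR of ABI4 (AT2G40220), an AP2 factor of ABA signaling, had 14.9 and 9.36 CPM in the L57 libraries, against 77.8 and 64.03 CPM in the L6 libraries (log2 fold change -2.57 ± 0.26, adjusted p = 7.0e-17). WOX2 (AT5G59340), a homeobox gene of the early embryo, had 7.18 and 9.64 CPM in the L57 libraries, against 48.5 and 40.7 CPM in the L6 libraries (-2.38 ± 0.30, adjusted p = 1.7e-11). AIL6 (AT5G10510), an AINTEGUMENTA-like factor whose ACR lies at an alternative start inside the gene, had 32.6 and 22.5 CPM in the L57 libraries, against 134 and 141 CPM in the L6 libraries (-2.34 ± 0.18, adjusted p = 7.5e-25). Other ACRs at AIL6 differed. The one 4580 bp upstream of the start fell (-0.93 ± 0.17, adjusted p = 3.2e-06), and the one 3332 bp upstream did not pass (-0.13 ± 0.32, adjusted p = 0.79). An ACR in an intron, 2729 bp downstream, rose (0.69 ± 0.26, adjusted p = 0.029). AIL5 and AIL7, relatives of AIL6, were also among the 10, with -2.28 ± 0.19 and -2.25 ± 0.33. FBH4, a bHLH factor, GA20OX3, which makes gibberellin precursors, HAI3, a phosphatase of ABA signaling, NAC060, a NAC factor, and CRF2, a cytokinin response factor, made up the rest, between -2.34 and -2.24. Seedling libraries lay below every L6 library at all 10 genes, as the naming rule required.

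**Figure D2:**
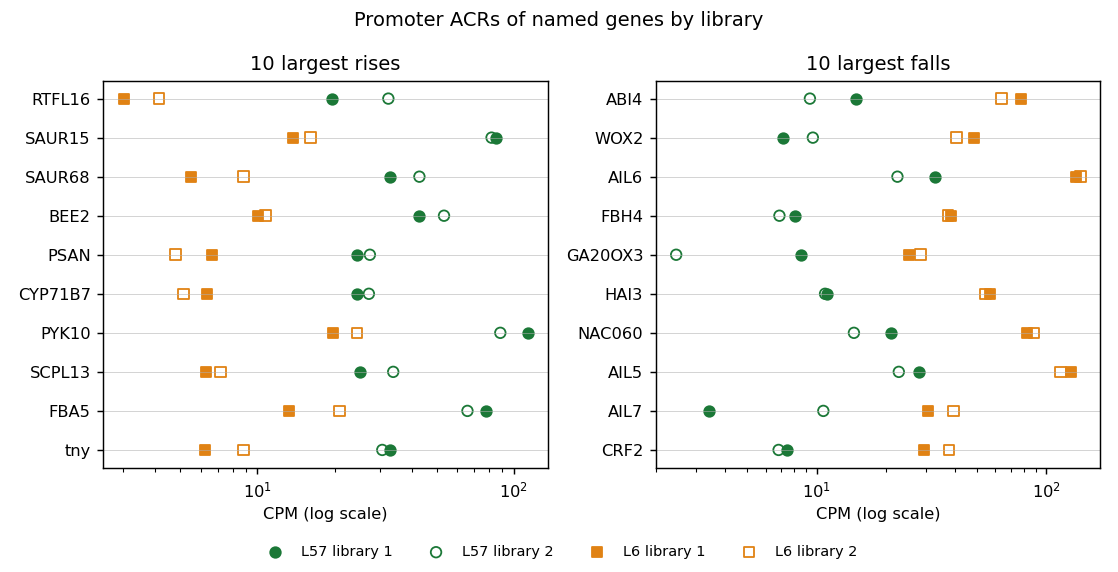
CPM (log scale) of the promoter ACR in each L57 library (circles) and each L6 library (squares) for the 10 largest rises and the 10 largest falls among genes with a symbol in the annotation. In no row do the 2 stages overlap, which the naming rule required.

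Several ACRs at the loci of seed regulators fell. The largest fall of all 30223 ACRs lay 667 bp upstream of the start of ABI3 (AT3G24650), the B3 factor that governs seed maturation, at 9.86 and 9.60 CPM in the L57 libraries, against 98.01 and 113 CPM in the L6 libraries (-3.43 ± 0.24, adjusted p = 1.2e-28). An ACR 3397 bp upstream had 42.1 and 47.5 CPM at L57 against 110.2 and 129 CPM at L6 (-1.41 ± 0.16, adjusted p = 2.8e-13). In the coding sequence of ABI3, 3302 bp downstream of the start, and behind the gene, at 4380 bp, the ACRs had -1.87 ± 0.23 and -1.92 ± 0.36. The ACR 5721 bp downstream, close to the start of TMKL1, had 72.5 and 66.5 CPM at L57 against 78.1 and 70.03 CPM at L6 (-0.10 ± 0.16, adjusted p = 0.69). So 4 ACRs at ABI3 fell while the next one did not pass the test, except with TMM factors or DESeq2 size factors (-0.45 with each). In the printed sequence at ABI3, 1 DRE and neither an RY nor an ABRE word were found, the RY word being CATGCA. At ABI4 the second largest fall of all ACRs lay 1695 bp upstream, with 8.07 and 13.7 CPM at L57 against 104 and 122 CPM at L6 (-3.34 ± 0.23, adjusted p = 6.9e-29), and another, 3258 bp upstream, had -1.21 ± 0.15. An ACR inside the coding sequence of ABI4 had 14.8 and 15.9 CPM at L57 against 15.3 and 9.28 CPM at L6 (0.33 ± 0.32, adjusted p = 0.45).

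At DOG1 (AT5G45830), the dormancy gene, the ACRs moved in both directions. The ACR 646 bp upstream of the start had 6.31 and 8.35 CPM at L57 against 22.4 and 23.1 CPM at L6 (-1.61 ± 0.35, adjusted p = 1.1e-04), and the one 1560 bp upstream had 25.04 and 16.4 CPM at L57 against 41.97 and 41.6 CPM at L6 (-1.04 ± 0.24, adjusted p = 3.0e-04). Both were thus lower in the seedling libraries. An ACR in the 3' UTR, 1341 bp downstream of the start, had 22.8 and 24.4 CPM at L57 against 17.5 and 13.8 CPM at L6 (0.61 ± 0.29, adjusted p = 0.095), and passed with TMM factors, total counts and GC-corrected offsets. Past the other end of the gene, 2558 bp downstream of the start and in the promoter of the neighbouring CIPK20, the ACR had 31.3 and 41.1 CPM at L57 against 14.2 and 18.96 CPM at L6 (1.13 ± 0.26, adjusted p = 2.0e-04). Without L57 replicate 2 neither this rise nor the fall 1560 bp upstream passed the test.

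ABI5 (AT2G36270), a bZIP factor of the ABA response, had a strong ACR at its start, with 107 and 109 CPM at L57 against 136 and 149.8 CPM at L6 (-0.40 ± 0.12, adjusted p = 0.0075). This fall did not pass without either L57 library, without L6 replicate 2 or with GC-corrected offsets. Its size depends on the scaling. The 3023 strongest ACRs, to which it belongs, had a median log2 fold change of 0.02 with the offsets and -0.32 with total counts. A second ACR, 958 bp downstream, had 5.13 and 6.40 CPM at L57 against 27.6 and 29.2 CPM at L6 (-2.28 ± 0.34, adjusted p = 1.0e-08). At LHCA2 the ACRs upstream of the gene moved in both directions. The second largest rise of all ACRs lay 926 bp upstream of this antenna gene, with 38.6 and 60.1 CPM at L57 against 6.099 and 4.68 CPM at L6 (3.21 ± 0.31, adjusted p = 4.1e-18), and the next ACR upstream, at 1948 bp, had 1.79 ± 0.27. Farther upstream, near the start of BRH1, the ACR at 3060 bp had 52.1 and 58.8 CPM at L57 against 61.2 and 61.1 CPM at L6 (-0.13 ± 0.18, adjusted p = 0.6), and the one at 3741 bp had 16.1 and 21.3 CPM at L57 against 30.4 and 29.5 CPM at L6 (-0.66 ± 0.27, adjusted p = 0.045), a fall that did not pass with TMM factors, total counts or DESeq2, in thinned libraries, or with any 1 library left out.

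**Figure D3:**
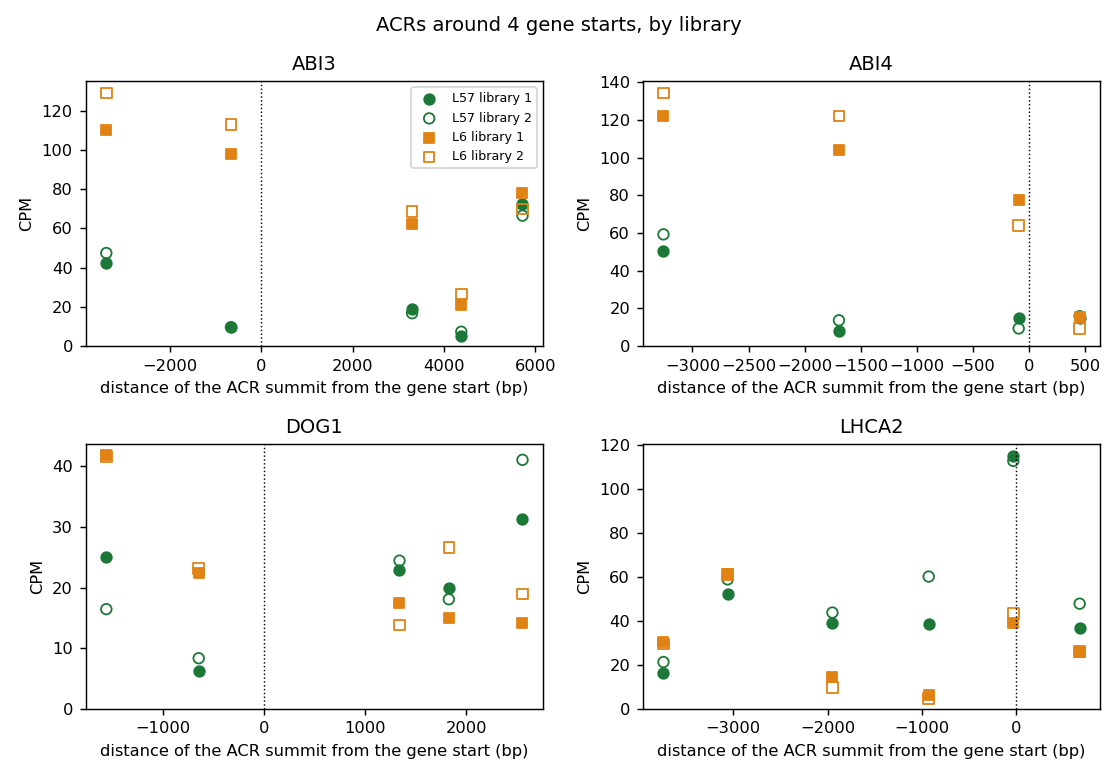
CPM of every ACR around the starts of ABI3, ABI4, DOG1 and LHCA2 in the L57 libraries (circles) and L6 libraries (squares), against the distance of its summit from the gene start in bp (negative is upstream, dotted line at 0). L57 lies far below L6 at the upstream ACRs of ABI3 and ABI4 and above L6 at those of LHCA2 nearest its start.

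Most LEA and dehydrin genes fell. Of 23 measured members, 16 were lower, 1 was higher and 6 did not pass, with a median log2 fold change of -0.92, beside -0.21 over all genes with a promoter ACR. With TMM factors 19 were lower and 0 higher (median -1.24), and with total counts 18 and 0 (median -1.08). Without L57 replicate 2 the median was -0.73. LEA7 (AT1G52690) had 28.95 and 37.1 CPM in the L57 libraries, against 127 and 104 CPM in the L6 libraries (log2 fold change -1.78 ± 0.17, adjusted p = 2.2e-17). For AT4G21020 the values were 22.6 and 24.3 CPM in the L57 libraries, against 83.2 and 88.9 CPM in the L6 libraries (-1.87 ± 0.20, adjusted p = 5.8e-15). EM1 (AT3G51810) and EM6 (AT2G40170, annotated as GEA6), hydrophilic proteins of the late embryo, had -1.44 ± 0.31 and -0.98 ± 0.19. ABRE words stood within 150 bp of the summit at 20 of 23 LEA promoters, beside 16.7% of all genes with a promoter ACR, and the sequences of LEA7 and AT4G21020 carry 2 each.

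Among embryo maturation regulators 6 of 12 were lower and the other 6 did not pass, and the median was -1.21. Besides the AIL genes, SOM (AT1G03790), a zinc finger repressor of germination, had 36.4 and 37.01 CPM in the L57 libraries, against 129 and 132 CPM in the L6 libraries (-1.83 ± 0.16, adjusted p = 2.6e-20). ABA signaling and response genes had 15 of 30 lower and the other 15 not past the threshold, with a median of -0.45 that was -0.76 with TMM factors. The lower members numbered 9 without L57 replicate 2. HAI3 (AT2G29380) had 11.1 and 10.9 CPM at L57 against 56.9 and 54.6 CPM at L6 (-2.33 ± 0.27, adjusted p = 1.8e-13). CYP707A2 (AT2G29090), which breaks down ABA, had 22.2 and 18.97 CPM at L57 against 57.5 and 77.4 CPM at L6 (-1.72 ± 0.22, adjusted p = 5.4e-11), and HAI2 (AT1G07430), another phosphatase, had 53.5 and 51.2 CPM at L57 against 109 and 90.8 CPM at L6 (-0.93 ± 0.16, adjusted p = 1.1e-06). In each of these 4 the seedling libraries were below both L6 libraries. The fall thus covered both a gene that removes ABA and genes that respond to it.

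Among genes of gibberellin, the hormone that promotes germination, 7 of 13 were lower and the other 6 did not pass, and the median was -0.72. Without L57 replicate 2 the lower ones numbered 4. RGL3 (AT5G17490), a DELLA repressor, had 36.1 and 29.3 CPM in the L57 libraries, against 121 and 121 CPM in the L6 libraries (-1.90 ± 0.18, adjusted p = 1.2e-18). GA20OX3 (AT5G07200) had 8.53 and 2.45 CPM at L57 against 25.2 and 28.3 CPM at L6 (-2.34 ± 0.37, adjusted p = 5.5e-08). RGA1 (AT2G01570), also a DELLA, had 6.92 and 3.52 CPM at L57 against 20.8 and 18.00 CPM at L6 (-1.91 ± 0.36, adjusted p = 5.0e-06), and GID1A (AT3G05120), a gibberellin receptor, had -1.12 ± 0.22. A receptor, repressors and an enzyme of synthesis were thus all among the lower genes.

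Genes of fat breakdown and the glyoxylate cycle had 8 of 18 members lower and 1 higher, with a median of -0.44. LACS7 (AT5G27600), a peroxisomal acyl-CoA synthetase, had 9.13 and 8.79 CPM in the L57 libraries, against 39.7 and 29.99 CPM in the L6 libraries (-1.95 ± 0.31, adjusted p = 8.3e-08). MFP2 (AT3G06860), of beta-oxidation, had 15.6 and 16.3 CPM at L57 against 41.5 and 40.9 CPM at L6 (-1.36 ± 0.26, adjusted p = 9.9e-06). Of 16 storage protein and oil body genes 6 were lower and 3 higher, with a median of -0.06. No member was called higher with TMM factors (9 lower, median -0.51), total counts (7 lower, median -0.34) or the DESeq2 Wald test (7 lower), or without L57 replicate 1 (4 lower), and the counts were 3 higher and 3 lower without L57 replicate 2. HSD6 (AT5G50770), a steroleosin, and AT1G48990, an oleosin, had -1.30 ± 0.23 and -1.002 ± 0.20. CRA1 (AT5G44120), a 12S globulin, had 71.1 and 57.9 CPM at L57 against 90.3 and 96.5 CPM at L6 (-0.55 ± 0.15, adjusted p = 0.003), and this did not pass without L57 replicate 2. ATS1 (AT4G26740), a caleosin, was higher, with 116 and 83.4 CPM at L57 against 63.6 and 70.1 CPM at L6 (0.56 ± 0.15, adjusted p = 0.0021), but it did not pass with TMM factors, total counts or DESeq2, or without L57 replicate 1.

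Heat shock and chaperone genes had 4 of 15 higher and 3 lower, which became 1 higher and 6 lower with TMM factors, 0 higher and 4 lower with the DESeq2 Wald test, 4 higher and 1 lower without L57 replicate 1, 2 higher and 3 lower without L57 replicate 2 and 3 higher and 1 lower without L6 replicate 1. The seed factor HSFA9 (AT5G54070) had 17.2 and 16.4 CPM at L57 against 47.6 and 53.6 CPM at L6 (-1.59 ± 0.24, adjusted p = 2.5e-08), whereas Hsp70b (AT1G16030), a chaperone, had 98.6 and 137 CPM at L57 against 65.1 and 47.8 CPM at L6 (1.08 ± 0.15, adjusted p = 4.0e-10), a rise that did not pass in the DESeq2 Wald test. The list's median of 0.18 changed sign with TMM factors (-0.10). CBF/DREB and NAC stress factors had 6 of 10 lower and 1 higher. NAC060 (AT3G44290) had 21.02 and 14.5 CPM at L57 against 82.7 and 88.6 CPM at L6 (-2.29 ± 0.22, adjusted p = 1.2e-17), and NAC019 (AT1G52890) had 16.2 and 19.2 CPM at L57 against 74.3 and 67.2 CPM at L6 (-1.98 ± 0.23, adjusted p = 1.7e-13). The single higher member, NAC032 (AT1G77450), had 0.50 ± 0.11, turned to -0.22 with TMM factors and -0.05 with total counts, and did not pass without L57 replicate 2.

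Many genes of the photosynthetic apparatus rose. Of 43 measured antenna and photosystem genes, 23 were higher, 2 lower and 18 did not pass, and the median was 0.49. With TMM factors the counts were 18 higher and 7 lower, and with the DESeq2 Wald test 15 higher and 3 lower. LHCB5 (AT4G10340), an antenna protein of photosystem II, had 127 and 107 CPM in the L57 libraries, against 37.4 and 42.9 CPM in the L6 libraries (log2 fold change 1.53 ± 0.16, adjusted p = 1.3e-15). LHCA2 (AT3G61470), of the photosystem I antenna, had 115 and 113 CPM in the L57 libraries, against 38.8 and 43.4 CPM in the L6 libraries (1.47 ± 0.16, adjusted p = 1.7e-14). PSBR (AT1G79040) and PSAD-2 (AT1G03130), subunits of photosystems II and I, had 1.05 ± 0.14 and 1.31 ± 0.19. These 4, named for their small p, had 27.95 CPM or more in every L6 library, beside a median of 32.4 CPM at L6 over all promoter ACRs. PSAN, with the largest rise of the list (2.18), was far lower at L6. I-box words were found near 26 of 43 summits, beside 1752 of all 10094 promoter ACRs, and ABRE words near 25 of 43, beside 16.7% of all genes with a promoter ACR. LEA genes, which fell, had a high share of ABRE words as well.

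Calvin cycle and chlorophyll synthesis genes had 8 of 20 higher and 1 lower, with a median of 0.06 that was -0.22 with TMM factors (7 higher and 5 lower) and -0.06 with total counts. The higher members numbered 5 without L57 replicate 1, 4 without L57 replicate 2 and 5 with the DESeq2 Wald test. The 4 leading members all act in carbon fixation. HCEF1 (AT3G54050), a plastid fructose bisphosphatase, had 118 and 116 CPM at L57 against 64.7 and 62.5 CPM at L6 (0.88 ± 0.15, adjusted p = 2.0e-07), a rise that did not pass in the DESeq2 Wald test. GAPA (AT3G26650) and GAPA-2 (AT1G12900), plastid glyceraldehyde phosphate dehydrogenases, had 1.08 ± 0.19 and 1.27 ± 0.22. RBCS1B (AT5G38430), a small subunit of Rubisco, had 47.1 and 25.6 CPM at L57 against 14.4 and 17.8 CPM at L6 (1.141 ± 0.26, adjusted p = 2.5e-04), and did not pass without L57 replicate 1, the library in which it was highest. It has close copies beside it, and the authors discarded reads of low mapping quality, which can lower counts at such copies.

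Of 49 auxin genes (Aux/IAA repressors, SAUR genes and transporters), 20 were higher and 7 lower, with a median of 0.38, and the lower ones numbered 3 without L57 replicate 1 and 3 with GC-corrected offsets. ATAUX2-11 (AT5G43700), an Aux/IAA repressor, had the smallest p, at 157 and 166 CPM in the L57 libraries, against 40.2 and 40.8 CPM in the L6 libraries (2.00 ± 0.15, adjusted p = 4.1e-26). Its libraries lay close together within each stage. PBE box words stood near the summits of 25 of 49 genes of the list, beside 14.0% of all genes with a promoter ACR. SAUR15 and BEE2 carry 2 each in the sequences printed above. Growth bHLH genes had 4 of 9 higher and a median of 0.64. HBI1 (AT2G18300), a growth activator, had 68.4 and 71.3 CPM at L57 against 20.7 and 20.8 CPM at L6 (1.75 ± 0.21, adjusted p = 1.3e-12). PRE1 (AT5G39860) had 17.62 and 20.1 CPM at L57 against 7.42 and 9.22 CPM at L6 (1.18 ± 0.33, adjusted p = 0.0033). AIF1 (AT3G05800), an inhibitor of bHLH factors, had 21.02 and 19.5 CPM at L57 against 6.27 and 12.6 CPM at L6 (1.08 ± 0.33, adjusted p = 0.006). PRE1 did not pass without L57 replicate 2, nor AIF1 without L57 replicate 1 or L6 replicate 1, and the median without L57 replicate 2 was 0.01.

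Cell wall genes went both ways, with 6 of 19 higher and 7 lower (6 higher and 4 lower without L57 replicate 2). XTH32 (AT2G36870), a xyloglucan endotransglucosylase, had 60.8 and 56.5 CPM at L57 against 10.5 and 20.6 CPM at L6 (1.90 ± 0.24, adjusted p = 9.2e-12), and the expansin EXPA6 (AT2G28950) had 133 and 143 CPM at L57 against 68.8 and 67.4 CPM at L6 (1.03 ± 0.14, adjusted p = 3.2e-10). Another expansin, EXPA8 (AT2G40610), had 116 and 102 CPM at L57 against 178 and 181 CPM at L6 (-0.73 ± 0.12, adjusted p = 4.1e-07). XTH9 (AT4G03210), the strongest of the named genes, had 256 and 265 CPM at L57 against 163 and 188 CPM at L6 (0.57 ± 0.10, adjusted p = 2.2e-06), and its direction turned with scaling, to -0.22 with TMM factors and -0.05 with total counts. Of 8 measured genes of ER bodies and glucosinolates 3 were higher and 3 lower, with 1 higher and 1 lower without L57 replicate 1, 1 higher and 3 lower without L6 replicate 1 and 3 higher and 1 lower without L6 replicate 2. Beside PYK10 there was IGMT2 (AT1G21120), a methyltransferase of indole glucosinolates, with 16.9 and 16.3 CPM at L57 against 40.3 and 45.5 CPM at L6 (-1.37 ± 0.26, adjusted p = 5.1e-06).

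**Figure D4:**
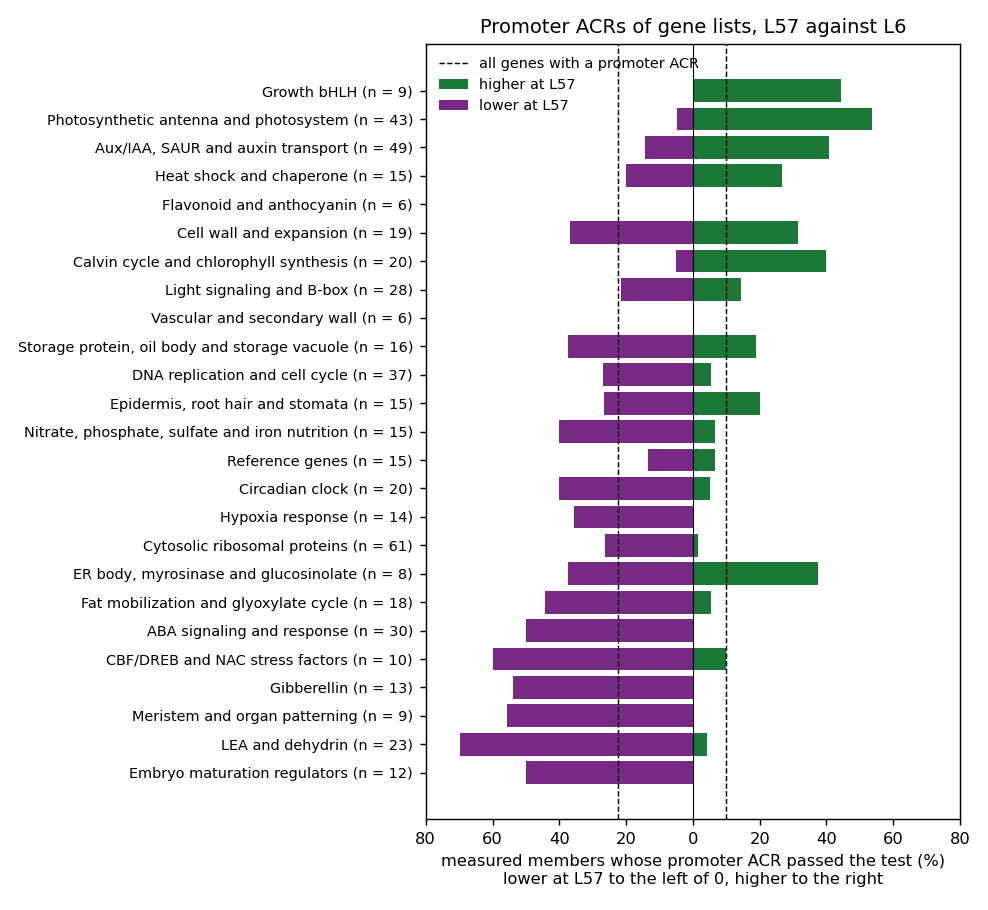
Share of measured members of each gene list with 6 or more measured members whose promoter ACR was higher (green, to the right) or lower (purple, to the left) at L57 than at L6, ordered by the median log2 fold change. Dashed lines mark the shares of all 10321 genes, 9.78% higher and 22.4% lower. LEA genes reach 69.6% lower and antenna and photosystem genes 53.5% higher.

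Light signaling genes had 4 of 28 higher and 6 lower, which became 8 higher and 3 lower with GC-corrected offsets, 7 higher and 7 lower with total counts, 5 higher and 3 lower without L57 replicate 1, 3 higher and 3 lower without L57 replicate 2 and 2 higher and 4 lower without L6 replicate 2. LZF1 (AT1G78600), a B-box factor that promotes greening, had 131 and 141 CPM at L57 against 70.00 and 63.1 CPM at L6 (1.04 ± 0.14, adjusted p = 2.9e-10), and BBX14 (AT1G68520) had 45.4 and 51.6 CPM at L57 against 19.03 and 29.7 CPM at L6 (0.99 ± 0.22, adjusted p = 1.9e-04). The germination repressor SPT (AT4G36930) had 21.8 and 12.3 CPM at L57 against 45.5 and 48.5 CPM at L6 (-1.49 ± 0.25, adjusted p = 4.8e-07), and PHYA (AT1G09570), the far-red photoreceptor, had 70.8 and 51.97 CPM at L57 against 103 and 101 CPM at L6 (-0.75 ± 0.16, adjusted p = 1.1e-04), a fall that did not pass without L57 replicate 2. At PHYA the ACRs moved in both directions. The ACR 486 bp upstream of its start had 22.2 and 24.4 CPM at L57 against 14.4 and 10.6 CPM at L6 (0.91 ± 0.30, adjusted p = 0.011). In its coding sequence, 1727 bp downstream of the start, the ACR did not pass (0.31 ± 0.27, adjusted p = 0.41). HY5 (AT5G11260), the master regulator of light responses, had 119 and 122 CPM at L57 against 127 and 124 CPM at L6 (-0.06 ± 0.13, adjusted p = 0.75). Its value was -0.70 with TMM factors and -0.54 with total counts, and passed there. Clock genes had 8 of 20 lower and 1 higher, with a median of -0.34. The lower ones numbered 4 without L57 replicate 1, 5 without L57 replicate 2 and 12 with TMM factors or total counts, where the medians were -0.75 and -0.58. GI (AT1G22770) had 29.03 and 18.4 CPM at L57 against 45.9 and 49.1 CPM at L6 (-1.03 ± 0.23, adjusted p = 2.1e-04) but did not pass without L57 replicate 2, and BOA (AT5G59570), of the evening complex, had 46.97 and 45.1 CPM at L57 against 67.3 and 81.1 CPM at L6 (-0.69 ± 0.18, adjusted p = 0.0011).

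DNA replication and cell cycle genes had 10 of 37 lower and 2 higher, a share close to that of all genes (22.4% lower), and a median of -0.16. The lower ones numbered 6 without L57 replicate 1, without L57 replicate 2 or without L6 replicate 1. RNR2A (AT3G23580), a subunit of ribonucleotide reductase, had 17.42 and 29.8 CPM at L57 against 66.4 and 63.3 CPM at L6 (-1.42 ± 0.22, adjusted p = 1.6e-08), and CYCB1;3 (AT3G11520), a mitotic cyclin, had 10.4 and 12.8 CPM at L57 against 29.1 and 38.5 CPM at L6 (-1.54 ± 0.29, adjusted p = 7.5e-06). In contrast, CDC6 (AT2G29680), which licenses replication origins, had 65.6 and 72.8 CPM at L57 against 34.2 and 32.2 CPM at L6 (1.07 ± 0.19, adjusted p = 2.0e-06). Cytosolic ribosomal protein genes had 16 of 61 lower and 1 higher, again near the background of 22.4%, with a median of -0.37. AT3G56340, an S26e ribosomal protein, had 24.1 and 15.5 CPM at L57 against 60.4 and 49.7 CPM at L6 (-1.49 ± 0.24, adjusted p = 6.6e-08). Without L57 replicate 1 the lower members numbered 5, and without L57 replicate 2 they numbered 7, with 10 without either L6 library and 9 with total counts. Site II words stood near the summits of 53 of 61 genes of this list and telo-box words (AAACCCTA) near those of 42 of 61. Among all genes with a promoter ACR the shares were 44.9% and 10.2%. AT3G56340 carries 2 Site II words and no telo-box in the printed stretch.

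Meristem and organ patterning genes had 5 of 9 lower and the other 4 not past the threshold, with a median of -0.86. After WOX2 came CUC2 (AT5G53950), which sets organ boundaries, with 11.3 and 12.7 CPM at L57 against 46.2 and 40.2 CPM at L6 (-1.84 ± 0.28, adjusted p = 1.9e-08), PHB (AT2G34710), of the upper leaf side, with -1.84 ± 0.34, and KAN2 (AT1G32240), of the lower leaf side, with -1.23 ± 0.29. Without L57 replicate 2 the lower members numbered 3, and KAN2 did not pass. Nutrition genes had 6 of 15 lower and 1 higher (4 lower without L57 replicate 2), led by the sulfate transporter SULTR1;2 (AT1G78000) (-0.76 ± 0.16, adjusted p = 8.6e-05) and the nitrate transporter NRT1.1 (AT1G12110) (-1.30 ± 0.29, adjusted p = 1.2e-04). Hypoxia genes had 5 of 14 lower and the other 9 not past the threshold, with 3 lower without L57 replicate 1. AT5G15120, which encodes an oxygen-sensing cysteine oxidase, had 4.00 and 2.98 CPM in the L57 libraries, against 23.2 and 22.4 CPM in the L6 libraries (-2.71 ± 0.40, adjusted p = 7.7e-09).

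Marker lists of other cell types and control genes were counted in the same way. Of 12 seed coat markers 2 had a promoter ACR, beside 10321 of all 27444 protein-coding genes. Other tissue lists were low as well, with 9 of 43 meristem and 6 of 25 vascular genes. The 2 seed coat markers were TT8 (AT4G09820) and MUM4 (AT1G53500), both genes that also act outside the seed coat. TT8 had 25.01 and 22.9 CPM at L57 against 10.3 and 8.82 CPM at L6 (1.32 ± 0.32, adjusted p = 4.1e-04), and MUM4 had 21.8 and 23.55 CPM at L57 against 15.2 and 11.7 CPM at L6 (0.76 ± 0.30, adjusted p = 0.04). Their summed level was 46.4 to 46.8 CPM at L57 and 20.6 to 25.5 CPM at L6, and MUM4 did not pass without either L57 library, without L6 replicate 2 or in thinned libraries. The other 10 markers, the tannin genes BAN and TT10 among them, had none. Of 12 endosperm markers 1 had a promoter ACR, 3xHMG-box1, which did not pass, although with TMM factors it was called lower (-0.45). Epidermal, root hair and stomatal genes had 3 of 15 higher and 4 lower, which became 5 higher and 2 lower with total counts, 2 higher and 2 lower without L57 replicate 1 and 2 higher and 1 lower without L6 replicate 2, and a count of 2 higher without L57 replicate 2. Among them was TMM (AT1G80080), a stomatal receptor, at 188 and 166 CPM at L57 against 100.5 and 89.6 CPM at L6 (0.89 ± 0.12, adjusted p = 9.4e-10), which did not pass with TMM normalization factors or DESeq2. Neither the 6 vascular nor the 6 flavonoid genes with a promoter ACR gave a call in the edgeR test with trended offsets, the DESeq2 Wald test or limma, and 2 and 0 of them had an unadjusted p under 0.05. With TMM factors, total counts, DESeq2 size factors or GC-corrected offsets the edgeR test called 1 vascular and 1 flavonoid gene higher in each case. Without L57 replicate 2 it called 1 vascular gene higher and 1 lower, and without L57 replicate 1 it called 1 flavonoid gene higher. Reference genes, chosen as stable in expression, had 1 of 15 higher and 2 lower, with a median of -0.32, and 5 lower with TMM factors or total counts. Floral organ identity genes, a list not expected to respond, had a promoter ACR at 2 of 15 members. Both of these were lower at L57 (-0.84 and -0.88). What part a shift in cell types had in the other lists was not tested.

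The intermediate stage shows where between 6 h and 57 h of light a change fell. In the steps below, each value is a log2 fold change from the same fit, and both steps share the L26 libraries. LEA7 was at 66.1 and 64.9 CPM in the L26 libraries, with -0.82 from L6 to L26 and -0.97 from L26 to L57. ABI4 was at 38.9 and 43.4 CPM, with -0.77 from L6 to L26 and -1.79 from L26 to L57, so that on the log2 scale more of its fall came late. In CPM its steps were of similar size, with means of 70.9 at L6, 41.2 at L26 and 12.1 at L57. AIL7 (AT5G65510) was already at 4.35 and 11.03 CPM at L26, with -2.12 from L6 to L26 and -0.14 from L26 to L57, and NAC060 at 18.8 and 23.8 CPM, with -1.99 from L6 to L26 and -0.30 from L26 to L57. In both of these the L26 level was close to that at L57.

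Rises differed in the same way. LHCB5 stood at 87.3 and 82.4 CPM at L26 (1.08 from L6 to L26 and 0.46 from L26 to L57) and SAUR15 at 37.03 and 43.5 CPM (1.43 from L6 to L26 and 1.04 from L26 to L57), with a rise in each step. LZF1 remained at 60.4 and 68.6 CPM at L26, and its change came after that (-0.04 from L6 to L26 and 1.08 from L26 to L57). PYK10 had reached 124 and 119 CPM at L26 (2.45 from L6 to L26 and -0.28 from L26 to L57), above its L57 libraries. XTH9 had 313 and 281 CPM at L26 (0.75 from L6 to L26 and -0.18 from L26 to L57) and AIF1 33.4 and 31.6 CPM (1.76 from L6 to L26 and -0.68 from L26 to L57), so that both had their highest values at the intermediate stage. The second step of PYK10, XTH9 and AIF1 did not pass the test. Over whole lists, the median of the LEA genes was -0.49 in the first step and -0.34 in the second, and that of the antenna and photosystem genes 0.23 and 0.27. The auxin list had 0.05 and 0.33, and the ABA list -0.19 and -0.22.

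**Figure D5:**
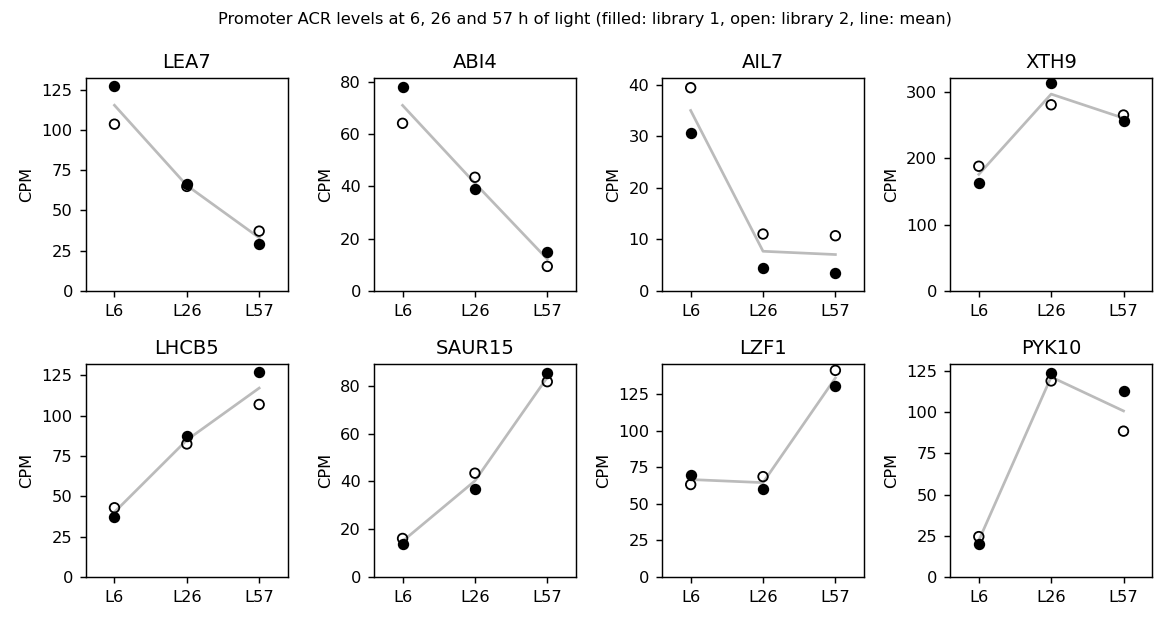
CPM of the promoter ACR of 8 genes at L6, L26 and L57, with 1 point per library and a line through the means. LEA7 and ABI4 go down in both steps, AIL7 mostly by L26, LHCB5 and SAUR15 up in both steps and LZF1 mainly after L26, while XTH9 and PYK10 are highest at L26.

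Words in the DNA around ACR summits went with the direction of change, which is described here with no test, since a word can share its regions with a position class or base composition. G-box words were present within 150 bp of 12.2% of all summits. Among those 3696 ACRs 965 were lower and 453 (12.3%) higher, beside 15.8% and 16.0% of all ACRs. ABRE words, at 11.4% of summits, had 26.5% lower and 11.5% higher. For the telo-box, at 4.71% of summits, the shares were 25.4% lower and 7.16% higher. Within promoter ACRs alone the difference for the G-box was smaller, with 25.8% lower beside 22.8% of all promoter ACRs, whereas the telo-box had 30.8%. PBE box words, at 18% of summits, leaned to the other side, with 20.1% higher and 857 of 5446 lower, and within promoters 15.8% were higher beside 10.8% of all promoter ACRs. RY words (CATGCA), of the B3 factors to which ABI3 belongs, had 18% higher and 17% lower, near the shares of all ACRs. Within promoter ACRs, however, RY words had 14.6% higher and 25.2% lower, beside 10.8% and 22.8% of all promoter ACRs. AuxRE and W-box words (TTGACC or TTGACT, bound by WRKY factors) were also near the shares of all ACRs, with 15.3% and 16.4% lower.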

How the data were processed

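ATAC-seq reads of seeds and seedlings were processed by the authors. Per the study's methods, adapters were removed with fastp 0.23.4, alignment to TAIR10 used Bowtie2 2.4.4, organellar, blacklisted and poorly mapped reads were dropped, duplicates were removed with Genrich 0.6.1, and MACS3 peaks found in both replicates of a stage were kept (versions from the submitters' processing notes). The deposited tables give raw read counts per ACR and library, and CPM, which the authors computed with csaw offsets that vary with abundance rather than from library totals. CPM was used for levels and counts for tests.

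All 8 libraries were fitted in 1 edgeR 4.0.16 quasi-likelihood model (R 4.3.3) with trended loess offsets, the contrast was L57 over L6, and p-values were adjusted by Benjamini-Hochberg over 30223 ACRs (threshold 0.05). Every adjusted p in the text is from this test. Values after ± are SE, derived as the size of the log2 fold change over the square root of the test's F statistic. Genes and sequences came from RefSeq TAIR10.1. Named genes were the 10 largest rises and falls among genes with a symbol in the annotation (adjusted p under 0.05, mean of at least 10 CPM, stages not overlapping), up to 4 members per list by p, and fixed loci. Genes with an identifier alone among the largest changes were added after their values were seen. The comparison, members and lists were chosen with earlier results of these data known, and the rule of the ribosomal list was rewritten once the annotation was at hand. The script was tested on simulated data. Alternatives used limma 3.58.1, DESeq2 1.42.0, other scalings, filters and windows, and left-out libraries, and thinned libraries were chosen after seeing the data.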

Additional observations from a re-analysis of the deposited data

How the results depend on the processing

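The counts of calls moved with the test, the scaling, the regions tested and the libraries included, whereas thinning all libraries to the smallest total gave 4052 higher and 4120 lower ACRs. ACRs higher at L57 numbered 4849, but 3024 with the DESeq2 Wald test, 3100 among ACRs above the median of mean CPM, where fewer were tested, and 3075 to 3551 with 1 library left out. Lower ACRs numbered 4769, but 3134 above the median of mean CPM and 2868 to 3781 with 1 library left out. Rises of at least 2-fold numbered 1669, but 3283 with total counts and 679 above the median of mean CPM, and falls of at least 2-fold 1971, but 901 above that median. Genes higher at L57 numbered 1009, but 501 with the DESeq2 Wald test and 1589 with a promoter window of 1000 bp, and lower genes 2308, but 1230 to 1785 with 1 library left out. Within 250 bp of summits 18.5% of ACRs with ACE words and 16.9% of those with MSA core words were lower. The log2 fold change of XTH9, 0.57, was -0.22 with TMM factors, DESeq2 size factors and the DESeq2 Wald test and -0.051 with total counts. That of NAC032, 0.50, was -0.22 in the same 3 settings and -0.053 with total counts. The causes were not tested. Of 101 named values, 78 kept direction and side of the threshold under all alternatives that gave a value. Replicate numbers did not pair the libraries by any label, and a replicate block gave 4766 higher and 4699 lower ACRs and changed no named call. Libraries of 1534759 to 1853894 reads at L57, against 3142490 to 3302541 at L6, limit small changes of weak ACRs.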

Other observations

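The single largest rise of all ACRs lay in coding sequence on chromosome 5 (4605161 to 4606321, TAIR10; nearest gene start that of AT5G14275), with 513 and 217 CPM in the L57 libraries, against 30.96 and 27.98 CPM in the L6 libraries (3.60 ± 0.16, adjusted p = 5.0e-53). The first L57 library was far above the other, though both were above the L6 libraries, and at L26 the values were 20.7 and 30.7 CPM. The L57 libraries of this ACR had an SD of 209 CPM around a mean of 365 CPM. Its SE and p come mostly from the pooled spread and do not show that scatter. The next rise after the one upstream of LHCA2 lay upstream of GATL3, a galacturonosyltransferase-like gene, with 36.9 and 34.3 CPM at L57 against 1.11 and 6.83 CPM at L6 (3.11 ± 0.34, adjusted p = 1.5e-14).

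The 2 strongest ACRs by mean CPM lay at the start of chromosome 2, next to the ribosomal RNA gene array that this chromosome arm carries. The stronger, at 9577 to 10439 near AT2G01023, had 2836 and 2192 CPM in the L57 libraries, against 432 and 469 CPM in the L6 libraries (2.48 ± 0.06, adjusted p = 8.2e-89). The other, at 2412 to 3849 near AT2G01008, had 1816 and 1545 CPM in the L57 libraries, against 384 and 504 CPM in the L6 libraries (1.92 ± 0.07, adjusted p = 1.5e-67). Both had values between those of the stages at L26. Whether reads of repeated sequence contribute there was not tested.

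ACRs on pseudogenes were called less often than all ACRs in both directions, but they were weak. Their median level was 17.7 CPM at L57 and 16.7 CPM at L6, beside 23.1 CPM for all ACRs at each stage. Of 3022 ACRs of like level (mean of 16.7 to 19.7 CPM), 376 were higher and 370 lower. Of the 1989 on pseudogenes, 221 (11.1%) were higher and 32 (1.61%) lower, beside 16.0% and 15.8% of all ACRs. The share of rises was thus near that at like level, and the share of falls far below it. The median log2 fold change was 0.15, and with GC-corrected offsets the counts were 138 and 52. Without L57 replicate 1 they were 87 and 21, and without L6 replicate 1 they were 136 and 21.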
